A study of Mus musculus with 6 samples.

Results

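Imprinted genes were compared between motor neurons (MNs) made from Hb9 control and A2 SMA mouse embryonic stem cells (mESCs). The set held 43 imprinted genes in 20 imprinted clusters, named from general knowledge, and each gene was assigned the parental allele that is known to be expressed. The genes were found by symbol in a table of 41945 transcribed loci. The table lists 41 of the 43, and 40 reached 1 FPKM (fragments per kilobase of exon, scaled to the mapped fragments of the library) in at least 1 genotype with more than 0 FPKM in both. Of these 40 genes, 22 are expressed from the paternal allele, 15 from the maternal allele, and Gnas, Inpp5f and Grb10 from an allele that depends on the isoform or the tissue. Kcnq1ot1 and Peg13, both paternally expressed noncoding RNAs, were not analysed here, and Calcr, the maternally expressed calcitonin receptor gene, stood at 0.158 FPKM in Hb9 and 0.266 FPKM in A2 MNs.

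Both lines are on the FVB/N background, carry the human SMN2 transgene and express eGFP from the Hb9 (Mnx1) promoter. Hb9 control cells have intact mouse Smn (SMN2+/+;mSmn+/+), and A2 SMA cells are homozygous for its deletion (SMN2+/+;mSmn-/-), which models severe spinal muscular atrophy. Embryoid bodies of both lines received retinoic acid and a Smoothened agonist, each at 1 µM, over 5 days, and eGFP-positive cells were then sorted for RNA-Seq with 3 samples per genotype. Each genotype was 1 mESC line, so genotype and line cannot be told apart. The table holds 1 FPKM value per genotype for each locus, made from the 3 samples together, so no value below has a replicate error, no difference was tested here, and the table does not give the reads behind each value. Smn1, the deleted gene, stood at 137 FPKM in Hb9 and 5.26 FPKM in A2 MNs.

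Imprinted genes are transcribed mainly from the allele of 1 parent, because DNA methylation set in the egg or sperm marks a control region and is kept in the embryo. They lie in clusters in which a single control region often serves paternally expressed protein genes and a maternally expressed noncoding RNA, or the reverse. Many act in fetal growth, in the placenta and in the developing brain, and several paternally expressed members are abundant in neurons. Reads were not separated by allele in these data, so the parental allele given for a gene is background and was not measured.

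The sorted cells of the 2 genotypes differed in cell type markers. All 10 neuronal markers found in the table were at least 2-fold lower in A2 MNs, with a summed level of 1633 FPKM in Hb9 and 166 FPKM in A2 MNs. All 8 markers of pluripotent cells were at least 2-fold higher, and their summed level was 275 FPKM in Hb9 and 1808 FPKM in A2 MNs. Of the MN markers, 4 of the 5 that passed the filter were at least 2-fold lower, among them Isl1 (108 and 5.95 FPKM in Hb9 and A2) and Chat (15.5 and 0.344 FPKM), whereas Mnx1, whose promoter drives the eGFP used for sorting, stood at 41.2 and 44.2 FPKM. Summed fibroblast markers stood at 141 FPKM in Hb9 and 85.0 FPKM in A2 MNs, endoderm markers at 41.8 and 25.8 FPKM, and mesoderm markers at 31.1 and 33.9 FPKM. Of the 11 fibroblast markers 6 (54.5%) were at least 2-fold lower and 1 (9.09%) at least 2-fold higher. Of the 6 endoderm markers that passed the filter 2 (33.3%) were at least 2-fold lower and 0 at least 2-fold higher. Over all genes that passed the filter these shares were 22.4% and 6.83%. Of the 5 mesoderm markers that passed the filter 4 were at least 2-fold lower (median log2 ratio -1.40, the value of Kdr). Hand1 alone was higher, at 14.7 and 26.7 FPKM. Any marker that reached 1 FPKM in only 1 genotype could only be higher there. Such markers were Syt1, Lhx3, Chat, Postn, Lum, Tbx6 and Kdr in Hb9 MNs and Thy1, Ttr and Hnf4a in A2 MNs. No marker of these lists that was found in the table stood at 0 except Alb in Hb9 MNs. Fewer cells of a type and less RNA per cell cannot be told apart in such samples, and the part that these marker differences have in the values below was not tested.

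Many imprinted genes were abundant in control MNs. In Hb9 MNs 14 of the 40 genes exceeded 100 FPKM, and the same number lay in the top 10% of all genes passing the filter. In A2 MNs 10 of the 40 did so on either measure. Gnas, which encodes the stimulatory G protein alpha subunit, had the highest level in Hb9 MNs at 949 FPKM, followed by Nnat at 782 FPKM and Mest at 588 FPKM. In A2 MNs the highest level was that of the noncoding RNA H19 at 813 FPKM, followed by Peg10 at 409 FPKM and Gnas at 326 FPKM. The median over the 40 genes was 37.8 FPKM in Hb9 and 21.7 FPKM in A2 MNs.

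**Figure D1:**
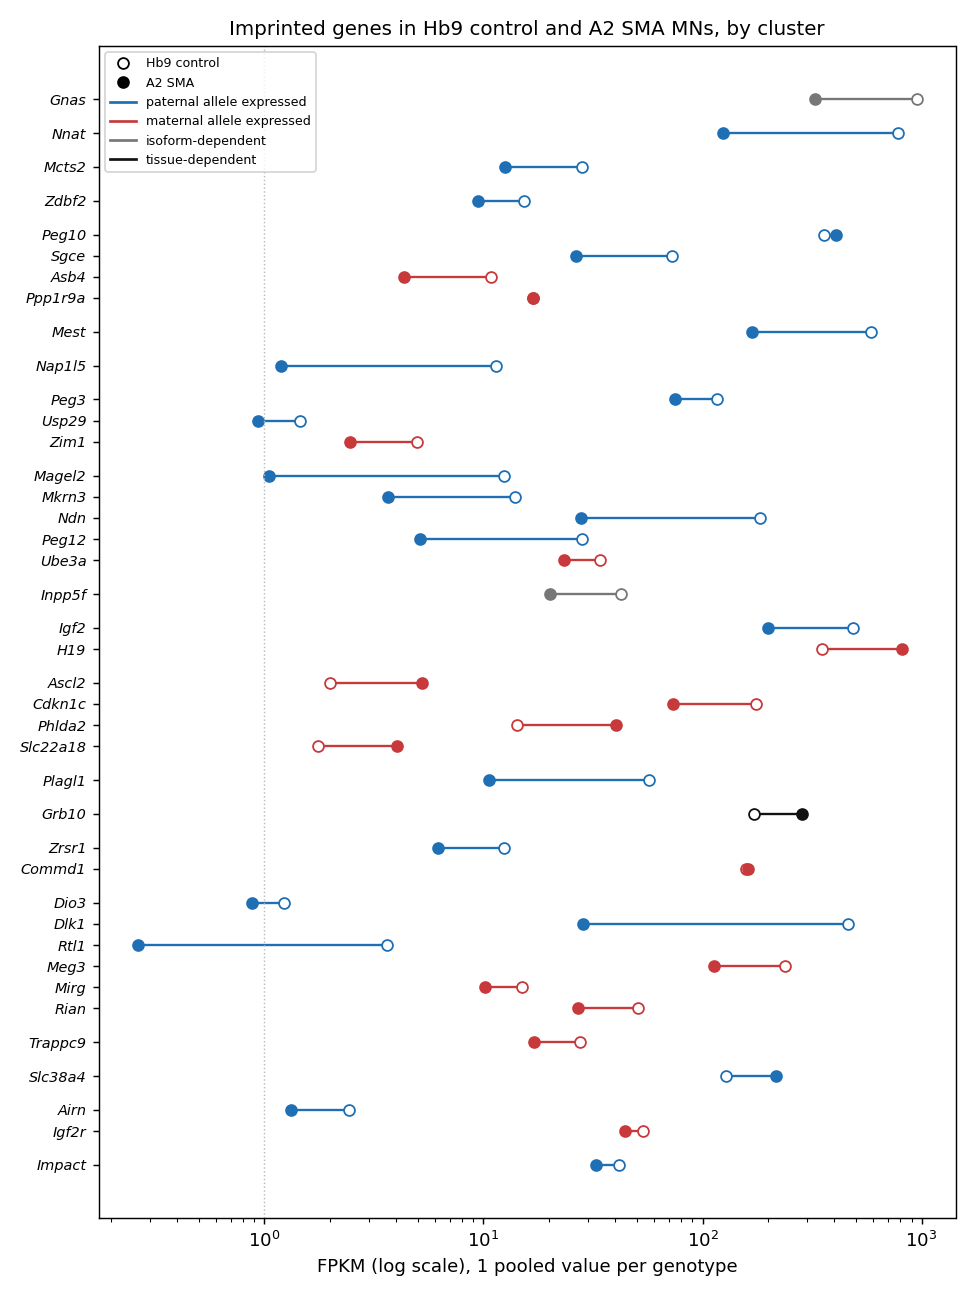
FPKM of the 40 imprinted genes that passed the filter, on a log axis, with 1 pooled value per genotype and no error. Open circles are Hb9 control MNs, filled circles are A2 SMA MNs, colours give the allele known to be expressed, gaps separate clusters, and the dotted line marks 1 FPKM. The longest lines running to a lower A2 value belong to Dlk1, Rtl1, Magel2 and Nap1l5.

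Most of the 40 genes were lower in A2 than in Hb9 MNs. The ratio of A2 over Hb9 FPKM was below 1 for 32 genes and above 1 for 8 genes. Rtl1, Dio3 and Usp29 are among the 32 and reached 1 FPKM in Hb9 MNs only, so they could only be lower. At least 2-fold lower were 20 genes, beside 22.4% of the 14926 genes that passed the same filter. At least 2-fold higher were 4 genes, beside 6.83%. The median log2 ratio was -0.96 over the imprinted genes and -0.29 over all genes. The whole distribution was therefore shifted towards lower values in A2 MNs, and with each ratio centred on the median gene 14 imprinted genes were at least 2-fold lower, beside 16.5% of all genes, and 6 were at least 2-fold higher, beside 10.4%. Centring moved 2 genes from below to above 0, Igf2r from -0.27 to 0.02 and Ppp1r9a from -0.01 to 0.28.

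The paternally expressed genes accounted for most of the lower values. Of the 22 paternally expressed genes, 20 were lower in A2 MNs, and their median log2 ratio was -1.38. At least 2-fold lower were 14 (63.6%) and at least 2-fold higher 0, beside 22.4% and 6.83% of all genes. Rtl1, Dio3 and Usp29, all paternally expressed, passed the filter through their Hb9 value only, so they could only be lower. Of the 15 maternally expressed genes, 10 were lower, and their median log2 ratio was -0.54. At least 2-fold lower were 4 (26.7%), near the share of all genes, and at least 2-fold higher were also 4 (26.7%). After centring, 12 paternally expressed genes and 1 maternally expressed gene (Asb4) stayed at least 2-fold lower, beside 16.5% of all genes. At least 2-fold higher were 1 paternally expressed gene (Slc38a4, at 1.05) and 4 maternally expressed genes, beside 10.4%. Genes of a cluster share control regions and are not independent, so each cluster was also left out in turn. The paternal median then ranged from -1.64 to -1.09 and the maternal median from -0.56 to -0.14, and the paternal median was the lower of the pair each time, by 0.67 to 1.23 on the log2 scale. With 1 median per cluster and allele, the middle value was -1.17 over 15 clusters with paternally expressed genes and -0.54 over 9 clusters with maternally expressed genes. Neuronal markers had a median log2 ratio of -3.89 and pluripotency markers of 2.69 in the same comparison, and their part in the contrast between alleles was not tested.

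**Figure D2:**
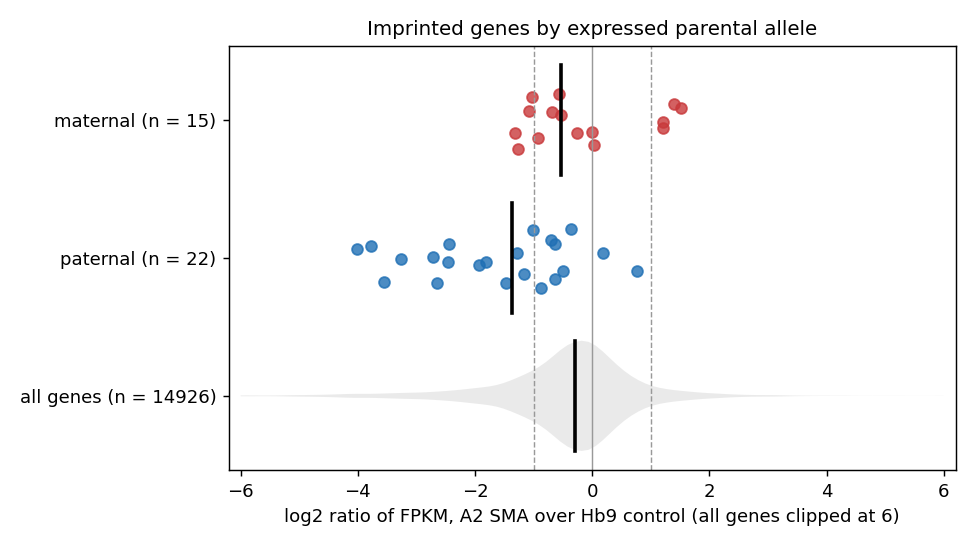
Log2 ratio of A2 SMA over Hb9 control FPKM for the paternally expressed (22) and maternally expressed (15) genes, 1 point per gene, and the distribution over all 14926 genes (grey, values beyond 6 drawn at 6). Black bars are medians (-1.38, -0.54 and -0.29), dashed lines mark 2-fold, and vertical scatter has no meaning. No paternally expressed gene lies beyond the right dashed line.

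Among the 40 genes the lowest ratio was that of Dlk1 in the Dlk1-Dio3 domain on chromosome 12. The domain carries 3 paternally expressed protein genes and a chain of maternally expressed noncoding RNAs. Dlk1, a membrane protein of the Notch ligand family, stood at 463 FPKM in Hb9 and 28.5 FPKM in A2 MNs, 16.2-fold lower (chr12:110691032-110701546, NCBI m37). Rtl1, a gene derived from a retrotransposon and needed in placental vessels, stood at 3.63 and 0.265 FPKM, 13.7-fold lower, and at these low levels its log2 ratio of -3.78 became -1.87 with a pseudocount of 1 FPKM. Dio3, which encodes the deiodinase that inactivates thyroid hormone and lies at the far end of the domain, was near the filter in both genotypes, with 1.23 and 0.876 FPKM. Rtl1, Dio3 and Usp29 of the Peg3 cluster were the 3 genes that passed the filter through their Hb9 value only. The 3 maternally expressed RNAs of the domain were lower by a smaller factor. Meg3 stood at 237 FPKM in Hb9 and 113 FPKM in A2 MNs, 2.10-fold lower. Rian, the host of a snoRNA array, stood at 50.9 and 26.9 FPKM, a log2 ratio of -0.92, and Mirg, the host of a microRNA array, stood at 15.003 and 10.2 FPKM, a log2 ratio of -0.56. All 6 genes of the domain were lower in A2 MNs, but the filter allowed no other direction for Rtl1 and Dio3. The ratios of Dlk1 and Rtl1 lay below those of the other 4.

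**Figure D3:**
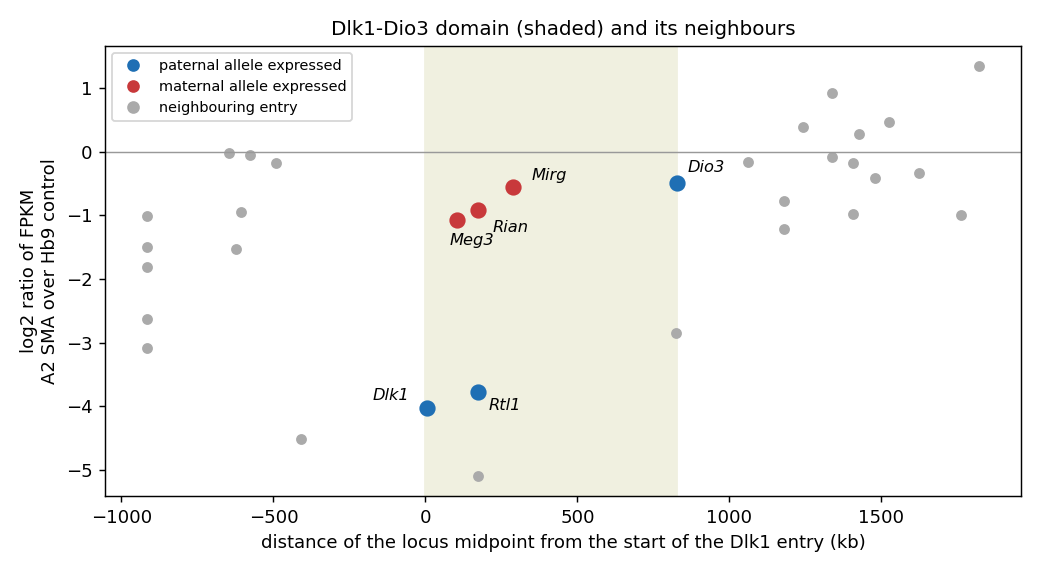
Log2 ratio of A2 SMA over Hb9 control FPKM along the Dlk1-Dio3 domain (shaded) and within 1 Mb on either side, by distance in kb from the start of Dlk1. Blue points are paternally expressed genes, red points maternally expressed RNAs and grey points other entries that passed the filter. Dlk1 and Rtl1 lie near -4, and Meg3, Rian and Mirg lie between -1.07 and -0.56.

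Rtl1 is of interest because maternally expressed microRNAs are transcribed from the strand opposite to it and match its transcript. The table has entries for the hairpins of Mir431, Mir433, Mir127 and Mir434, which share the deposited locus of Rtl1 and Rian (chr12:110827403-110899919, NCBI m37). The mature sequences of these 4 microRNAs are shown because they are among the known antisense partners of Rtl1. They are taken from RefSeq (GRCm38.p6, plus strand of chromosome 12) and written 5′ to 3′ with the seed, bases 2 to 8, in capitals.
mmu-miR-431-5p: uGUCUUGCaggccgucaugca
mmu-miR-431-3p: cAGGUCGUcuugcagggcuucu
mmu-miR-433-5p: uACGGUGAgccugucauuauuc
mmu-miR-433-3p: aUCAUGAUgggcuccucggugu
mmu-miR-127-5p: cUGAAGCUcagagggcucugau
mmu-miR-127-3p: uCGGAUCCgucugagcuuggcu
mmu-miR-434-5p: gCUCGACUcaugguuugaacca
mmu-miR-434-3p: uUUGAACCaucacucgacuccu
The 8 seeds all differ from each other, so no seed family is shared among the arms shown. The Mir433 entry stood at 3.12 FPKM in Hb9 and 0.0915 FPKM in A2 MNs. Mir431 stood at 1.10 FPKM and Mir434 at 1.25 FPKM in Hb9, and both were listed at 0 in A2 MNs. Mir127 was near 0 in both genotypes, with 0.0292 and 0.174 FPKM. These entries come from libraries of longer RNA and do not measure the mature microRNAs. The library kit does not mark strand, so reads of Rtl1 and of the RNA antisense to it cannot be told apart at these entries. Of 43 entries of the domain that name a microRNA hairpin alone, 34 were at 0 in both genotypes, 4 were lower in A2 MNs and 5 were higher. The fourth lower entry was Mir1188, at 0.640 FPKM in Hb9 and 0 in A2 MNs. Beside Mir127, the higher entries were Mir382, Mir1193, Mir453 and Mir341, all listed at 0 in Hb9 MNs and at 0.751, 0.673, 0.341 and 0.188 FPKM in A2 MNs.

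The Prader-Willi/Angelman cluster on chromosome 7 showed the same order of alleles. Its paternally expressed genes Ndn and Magel2 encode proteins of the MAGE family, Mkrn3 encodes a ubiquitin ligase known for its part in the timing of puberty, and Peg12 encodes a regulator of Wnt signalling. Ndn stood at 183 FPKM in Hb9 and 27.9 FPKM in A2 MNs, 6.55-fold lower. Magel2 stood at 12.3 and 1.05 FPKM, 11.8-fold lower, and with a pseudocount of 1 FPKM its log2 ratio of -3.56 became -2.70. Peg12 stood at 28.1 and 5.11 FPKM, 5.49-fold lower, and Mkrn3 at 14.0 and 3.67 FPKM, 3.81-fold lower. All 4 paternally expressed genes were therefore at least 2-fold lower in A2 MNs. Ube3a, the ubiquitin ligase gene of Angelman syndrome, is maternally expressed in mature neurons and expressed from both alleles in many other cells, and it stood at 34.0 and 23.4 FPKM, a log2 ratio of -0.54. Ndn, Magel2 and Mkrn3 share 1 deposited locus (chr7:69483169-69568255, NCBI m37), and Peg12 follows it (chr7:69603720-69609458), whereas Ube3a lies nearer the start of the chromosome (chr7:66483988-66566996). Snrpn, a further paternally expressed gene of this cluster that is outside the set, stood at 70.8 FPKM in Hb9 and 59.8 FPKM in A2 MNs, so its log2 ratio of -0.24 lay far from those of the other 4.

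The promoters of the 4 paternally expressed genes of the cluster that were lower together are shown, from 250 bases before to 50 bases after the start of transcription (RefSeq, GRCm38.p6), 5′ to 3′ on the strand of the gene and with each CpG in capitals. They are chr7:62348027-62348326 (plus strand) for Ndn, chr7:62376729-62377028 (plus strand) for Magel2, chr7:62420104-62420403 (minus strand) for Mkrn3 and chr7:62464461-62464760 (minus strand) for Peg12.
Ndn: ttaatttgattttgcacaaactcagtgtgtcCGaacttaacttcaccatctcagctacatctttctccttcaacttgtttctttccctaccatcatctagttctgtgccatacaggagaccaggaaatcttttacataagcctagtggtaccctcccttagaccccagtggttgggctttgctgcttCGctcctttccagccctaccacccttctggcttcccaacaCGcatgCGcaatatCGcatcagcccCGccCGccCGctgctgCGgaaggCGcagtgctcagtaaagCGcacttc
Magel2: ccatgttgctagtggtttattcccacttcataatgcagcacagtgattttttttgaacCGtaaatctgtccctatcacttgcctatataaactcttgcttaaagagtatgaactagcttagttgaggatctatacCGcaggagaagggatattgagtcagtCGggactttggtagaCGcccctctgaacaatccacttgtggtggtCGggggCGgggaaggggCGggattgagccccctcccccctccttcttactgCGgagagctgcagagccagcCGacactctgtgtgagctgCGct
Mkrn3: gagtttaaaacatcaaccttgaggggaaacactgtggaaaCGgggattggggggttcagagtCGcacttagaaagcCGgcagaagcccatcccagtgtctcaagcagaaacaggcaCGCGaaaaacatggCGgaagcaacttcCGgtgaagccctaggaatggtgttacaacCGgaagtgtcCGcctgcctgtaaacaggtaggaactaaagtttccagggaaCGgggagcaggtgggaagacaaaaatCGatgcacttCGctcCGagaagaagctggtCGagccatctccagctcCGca
Peg12: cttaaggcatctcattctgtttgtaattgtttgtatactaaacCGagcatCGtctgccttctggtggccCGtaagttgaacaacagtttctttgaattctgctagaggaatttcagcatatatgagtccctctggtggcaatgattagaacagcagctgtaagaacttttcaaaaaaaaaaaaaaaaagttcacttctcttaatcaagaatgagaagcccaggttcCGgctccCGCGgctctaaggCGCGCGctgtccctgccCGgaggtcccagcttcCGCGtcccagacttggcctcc
Each window spans 300 bases. Ndn had 11 CpGs, Magel2 10, Mkrn3 15 and Peg12 12 in it, and where the window richest in CpG was taken for each gene the median was 8 over all genes of the promoter table, 17 over the imprinted genes and 22 over the genes that passed the FPKM filter. The last value rests on 9956 symbols with a promoter, whereas 14926 loci passed the filter, too small a share for a check. CpG is the dinucleotide that carries the parental methylation mark, and methylation was not measured here.

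H19 and Igf2, which share enhancers and a methylated control region on chromosome 7, differed in opposite directions. Igf2, a fetal growth factor expressed from the paternal allele, stood at 487 FPKM in Hb9 and 199 FPKM in A2 MNs, 2.45-fold lower (chr7:149836671-149856261, NCBI m37). H19, a maternally expressed noncoding RNA, stood at 352 and 813 FPKM, 2.31-fold higher (chr7:149761433-149764048). The summed level of the 2 genes was 839 FPKM in Hb9 and 1012 FPKM in A2 MNs. A lower-expressed entry that also carries the symbol Igf2 stood at 147 and 51.0 FPKM, so it had the direction of the main entry.

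The Kcnq1/Cdkn1c cluster lies next to H19 and Igf2 and held 3 of the 4 genes that were at least 2-fold higher in A2 MNs. Phlda2, which restrains placental growth, stood at 14.2 FPKM in Hb9 and 40.4 FPKM in A2 MNs, 2.84-fold higher. Ascl2, a transcription factor of the trophoblast, stood at 1.99 and 5.22 FPKM, 2.63-fold higher, and Slc22a18, a transporter gene, at 1.75 and 4.04 FPKM, 2.31-fold higher. Cdkn1c, which encodes the cell cycle inhibitor p57, had the opposite direction, with 176 and 73.2 FPKM, 2.41-fold lower. The 4 genes are all maternally expressed, so the members of 1 cluster and 1 allele did not share a direction here. After centring on the median gene the ratio of Cdkn1c was -0.98, short of 2-fold, and the other 3 stayed at least 2-fold higher. With a pseudocount of 1 FPKM the log2 ratio of Slc22a18 was 0.88, short of 2-fold, beside 1.44 for Phlda2 and 1.06 for Ascl2.

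Single paternally expressed genes outside these clusters covered the range from 9.59-fold lower to 1.69-fold higher. Nap1l5, a retrogene inside an intron of Herc3, stood at 11.4 FPKM in Hb9 and 1.19 FPKM in A2 MNs, 9.59-fold lower, and with a pseudocount of 1 FPKM its log2 ratio of -3.26 became -2.50. Nnat, which encodes a small membrane protein abundant in developing neurons, stood at 782 and 124 FPKM, 6.29-fold lower. Plagl1, a zinc finger transcription factor gene, stood at 57.2 and 10.5 FPKM, 5.42-fold lower. Mest, which encodes a protein of the hydrolase family, stood at 588 and 168 FPKM, 3.50-fold lower. These 4 genes lie in separate clusters, so the low values were not confined to 1 domain. Mcts2, a retrogene inside H13, stood at 28.0 and 12.5 FPKM, 2.24-fold lower. Zdbf2, a zinc finger gene, stood at 15.3 and 9.43 FPKM, a log2 ratio of -0.70. Impact, which encodes an inhibitor of the translational control kinase Gcn2, stood at 41.7 and 32.6 FPKM, a log2 ratio of -0.36 near the median gene. Slc38a4, an amino acid transporter gene, was the paternally expressed gene with the largest ratio in the other direction, with 129 FPKM in Hb9 and 217 FPKM in A2 MNs, a log2 ratio of 0.76.

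In the promoter of Nap1l5, the hexamer TGCCGC occurred at 2 positions. ZFP57, a zinc finger protein that keeps imprints in the early embryo, binds this hexamer when its CpG is methylated. The promoter is shown because both positions lie in the promoter of a gene that was at least 2-fold lower (RefSeq, GRCm38.p6, chr6:58907077-58907376, minus strand), with each TGCCGC in capitals.
Nap1l5: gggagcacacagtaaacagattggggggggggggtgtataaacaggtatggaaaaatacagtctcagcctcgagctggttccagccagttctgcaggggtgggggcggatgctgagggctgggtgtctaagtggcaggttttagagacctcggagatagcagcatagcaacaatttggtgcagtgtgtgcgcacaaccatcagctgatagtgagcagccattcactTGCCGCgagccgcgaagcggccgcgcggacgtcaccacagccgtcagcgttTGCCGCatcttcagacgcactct
A promoter was found for 35 of the 43 genes. The hexamer TGCCGC or its complement GCGGCA, searched on both strands, was present in at least 1 window of 12 of the 35 (34.3%), beside 13.1% of all genes in the promoter table and 22.5% of those that passed the FPKM filter. A gene with more windows has more places for a match, and the 35 genes had 52 windows. Counted by window the shares were 25%, 11.6% and 18.9%. The hexamer was present for 8 of the 17 genes with a promoter that were at least 2-fold lower (27 windows). Of the 16 others that passed the filter (22 windows), 3 had it. Promoters of paternally expressed genes held it in 36.8% and those of maternally expressed genes in 30.8%. Zdbf2, with a log2 ratio of -0.70, had the window with the most matches, 3. Windows of Mest, 3.50-fold lower, and of Calcr, below the FPKM filter, held 2, as did that of Nap1l5. By symbol, 9956 genes that passed the FPKM filter were matched to a promoter, whereas 14926 loci passed it and a locus can carry several symbols. The share matched was therefore under the 80% set for such a check. The comparison with expressed genes is void as a check, and its values are given as a description. A match describes the letters of these windows and is not evidence of binding, and the imprinting control regions often lie elsewhere.

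The Peg10/Sgce cluster on chromosome 6 held genes of both alleles without an order by allele. Sgce, which encodes epsilon-sarcoglycan, stood at 72.8 FPKM in Hb9 and 26.4 FPKM in A2 MNs, 2.76-fold lower, although it shares its promoter region with Peg10. Peg10, a retrotransposon-derived gene needed in the placenta, stood at 360.5 and 409 FPKM, a log2 ratio of 0.18. The maternally expressed genes were split in the same way. Asb4, a component of a ubiquitin ligase, stood at 10.8 and 4.33 FPKM, 2.50-fold lower, and Ppp1r9a, which encodes the actin-binding protein neurabin of synapses, stood at 16.9 and 16.8 FPKM.

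In the Peg3 cluster on chromosome 7 all 3 genes were lower, by 1.55-fold to 2.03-fold. Usp29 passed the filter through its Hb9 value only and could only be lower. Peg3, a zinc finger gene expressed from the paternal allele, stood at 116 FPKM in Hb9 and 74.9 FPKM in A2 MNs, a log2 ratio of -0.64. Usp29, a paternally expressed ubiquitin protease gene, stood at 1.46 and 0.935 FPKM, also a log2 ratio of -0.64. With its second entry added, which had the opposite direction, the log2 ratio was -0.24. Zim1, a maternally expressed zinc finger gene, stood at 4.99 and 2.45 FPKM, 2.03-fold lower and just past the 2-fold limit.

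The remaining clusters with both alleles held a retrogene or an antisense RNA inside a maternally expressed gene. Zrsr1, a paternally expressed retrogene within an intron of Commd1, stood at 12.5 FPKM in Hb9 and 6.204 FPKM in A2 MNs, 2.01-fold lower. Commd1, which acts in copper handling and protein trafficking, stood at 157 and 161 FPKM, but its entry also names B3gnt2 and Gm12057. Airn, the paternally expressed RNA that runs antisense through Igf2r, stood at 2.43 and 1.32 FPKM, a log2 ratio of -0.88. Igf2r, the receptor that clears Igf2, stood at 53.5 and 44.4 FPKM, a log2 ratio of -0.27. Airn and Igf2r share a deposited locus (chr17:12875271-13061009, NCBI m37), and without strand their overlapping reads cannot be told apart.

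Trappc9, a maternally expressed gene of vesicle trafficking, stood at 27.5 FPKM in Hb9 and 17.02 FPKM in A2 MNs, a log2 ratio of -0.69. Of the genes whose expressed allele varies, Gnas stood at 949 and 326 FPKM, 2.91-fold lower, and Inpp5f, a phosphoinositide phosphatase gene with a paternally expressed isoform, at 42.5 and 20.1 FPKM, 2.11-fold lower. Gene-level values do not separate the isoforms of either gene. Grb10, an adaptor of insulin receptor signalling, is expressed from the paternal allele in neurons and from the maternal allele in most other tissues, and it stood at 172 and 286 FPKM, 1.66-fold higher.

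Within a cluster, the ratio of a paternally to a maternally expressed gene does not depend on how the 2 libraries were scaled. For each of the 7 clusters with both, the most abundant gene of each allele was taken, a rule set after the values had been seen. The ratio was lower in A2 MNs for 5 of the 7 pairs. Among the 5, the overlapping reads of Airn and Igf2r cannot be told apart, and the entry of Commd1 also names B3gnt2 and Gm12057. Dlk1 over Meg3 was 1.95 in Hb9 and 0.253 in A2 MNs, 7.72-fold lower. Igf2 over H19 was 1.39 and 0.245, 5.65-fold lower. In both pairs the paternally expressed gene was the more abundant of the pair in Hb9 MNs and the less abundant in A2 MNs. Ndn over Ube3a was 5.38 and 1.19, 4.50-fold lower, Zrsr1 over Commd1 was 0.0792 and 0.0385, 2.05-fold lower, and Airn over Igf2r was 0.0455 and 0.0298, 1.53-fold lower. The other 2 ratios were higher in A2 MNs, at 23.4 and 30.5 for Peg3 over Zim1 and 21.4 and 24.4 for Peg10 over Ppp1r9a. Taking the median log2 ratio of all genes of an allele in place of 1 gene gave a paternal minus maternal difference of -2.86 for Dlk1-Dio3, -2.50 for H19/Igf2, -2.04 for Prader-Willi/Angelman, -1.04 for Zrsr1/Commd1, -0.61 for Igf2r/Airn, 0.02 for Peg10/Sgce and 0.38 for Peg3. The paternal median of Dlk1-Dio3 is the value of Rtl1, which passed the filter through its Hb9 value only and so could only be lower. The difference for Dlk1-Dio3 was -0.98 with a pseudocount of 1 FPKM, an alternative chosen after seeing the data. The same alternative gave -2.49 for H19/Igf2 and -1.94 for Prader-Willi/Angelman.

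**Figure D4:**
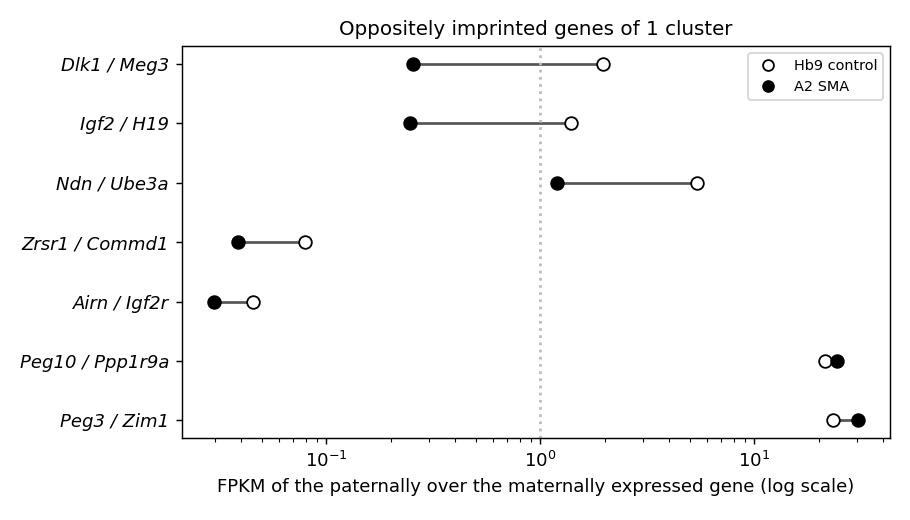
FPKM of the most abundant paternally expressed gene divided by that of the most abundant maternally expressed gene in each of the 7 clusters with both, on a log axis. Open circles are Hb9 control MNs and filled circles A2 SMA MNs, with 1 pooled value each, and the dotted line marks equal FPKM. The ratios of Dlk1 over Meg3 and Igf2 over H19 lie on opposite sides of this line in the 2 genotypes.

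Genes near the clusters were examined to see whether the low values extended beyond the imprinted genes. Within 1 Mb of the clusters 320 other genes passed the filter, of which 19 were imprinted genes of the lists below and 30 overlapped the span of a cluster. Their median log2 ratio was -0.35, and 82 of them (25.6%) were at least 2-fold lower and 20 (6.25%) at least 2-fold higher in A2 MNs, close to the 22.4% and 6.83% of all genes. Without the listed imprinted genes and the entries that overlap a cluster, 281 genes remained, with a median of -0.33, and 66 (23.5%) were at least 2-fold lower and 20 (7.12%) at least 2-fold higher. The values that follow are for these genes outside the clusters. Around Nap1l5 the 4 neighbours had a median of 0.05 and none was 2-fold lower. Herc3, which is left out here because its intron holds Nap1l5, stood at 11.9 FPKM in Hb9 and 19.8 FPKM in A2 MNs. Around Plagl1 the 10 neighbours had a median of -0.19, and around Nnat the 34 neighbours had a median of -0.10. Of those around Nnat 8 (23.5%) were at least 2-fold lower, and the lowest, Vstm2l, had a log2 ratio of -3.33, below that of Nnat. Outside the Prader-Willi/Angelman cluster only 2 neighbours passed, both at least 2-fold lower, with log2 ratios of -1.35 and, for the nicotinic receptor subunit gene Chrna7, -1.58, and the ratios of all 4 paternally expressed genes were lower than these. Around Dlk1-Dio3 the 25 neighbours had a median of -0.41, and 8 were at least 2-fold lower, among them Begain, a gene of a synaptic protein, at 36.6 and 1.60 FPKM, and Eml1, a gene of a microtubule-binding protein, at 96.6 and 11.4 FPKM. Low ratios were thus also found at some genes outside the domain. Near H19, Igf2 and Kcnq1/Cdkn1c the gene of tyrosine hydroxylase, Th, stood at 39.1 and 1.36 FPKM. The 16 neighbours of Kcnq1/Cdkn1c had a median of -0.91, whereas 3 of the 4 genes of the set there were at least 2-fold higher. The 5 listed imprinted genes left out of these 16 were all lower. Cd81, Tssc4, Nap1l4, Osbpl5 and Dhcr7 had log2 ratios of -0.63, -0.42, -0.30, -1.70 and -0.75. None of these 16 neighbours was 2-fold higher in A2 MNs.

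**Figure D5:**
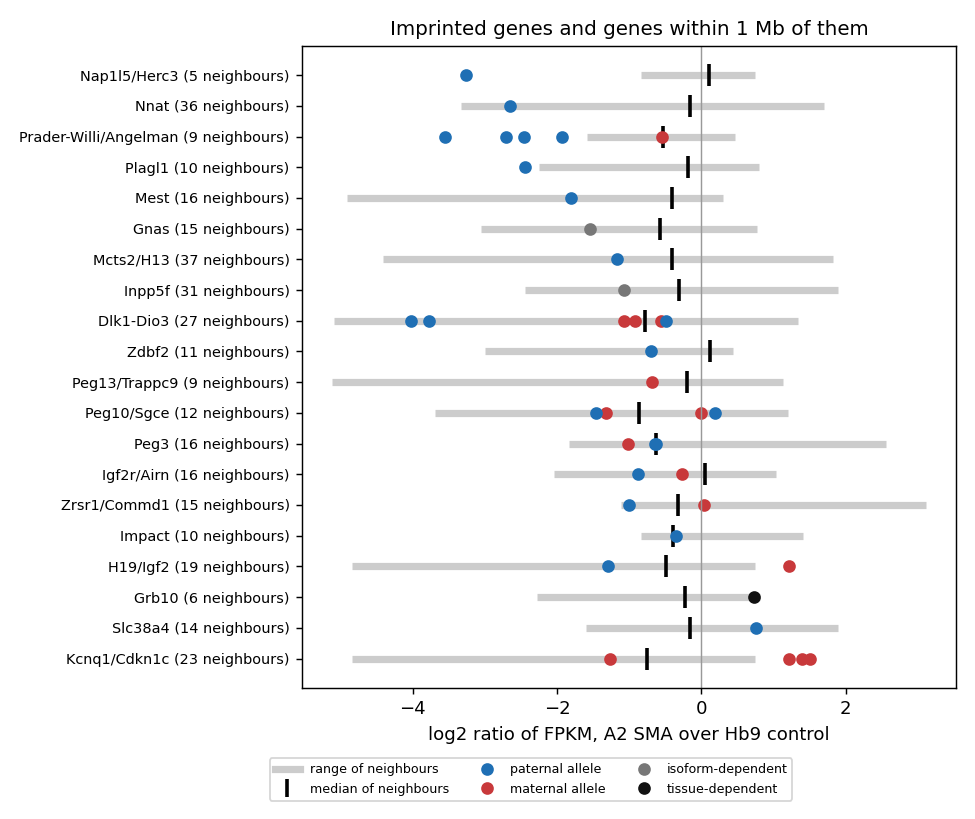
Log2 ratio of A2 SMA over Hb9 control FPKM for the imprinted genes of each cluster (points, coloured by expressed allele) and for all other genes within 1 Mb, those between the imprinted genes and other listed imprinted genes included (grey bar for the range, black tick for the median). Clusters are ordered by the median of their imprinted genes, and H19/Igf2 and Kcnq1/Cdkn1c share neighbours. The points of Nap1l5, Plagl1 and the 4 paternally expressed Prader-Willi/Angelman genes lie to the left of the range of their neighbours.

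Further imprinted genes, listed from general knowledge and outside the set of 43, did not show this order by allele. Of 10 further paternally expressed genes 4 passed the filter, with a median log2 ratio of 0.08, and 1 was at least 2-fold lower. That gene was Ddc, which encodes aromatic amino acid decarboxylase and is imprinted in the heart, at 117 FPKM in Hb9 and 24.0 FPKM in A2 MNs. Of 26 further symbols of maternally expressed genes, among which Ago2 and Eif2c2 name the same gene, 18 passed the filter, with a median of -0.52, and 6 (33.3%) were at least 2-fold lower and 0 at least 2-fold higher, beside 22.4% and 6.83% of all genes. The lowest was Kcnk9, a potassium channel gene imprinted in brain, at 12.6 and 0.364 FPKM. Osbpl5, Pon2, Pon3, Casd1 and Blcap had log2 ratios of -1.70, -1.16, -1.73, -1.05 and -1.61. Blcap surrounds Nnat, and its paired values were 58.7 and 19.2 FPKM. Several genes of this list are imprinted only in placenta or in single tissues.

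Factors that keep imprints in dividing cells were expressed in both genotypes. Of the 18 on the list all passed the filter, 0 were at least 2-fold lower and 2 (11.1%) were at least 2-fold higher, beside 22.4% and 6.83% of all genes, and their median log2 ratio was 0.23. Trim28, the corepressor that ZFP57 recruits, stood at 1009 FPKM in Hb9 and 1897 FPKM in A2 MNs. Zfp57 itself stood at 124 and 164 FPKM. Dnmt1, the maintenance DNA methyltransferase, stood at 94.4 and 101 FPKM. The 2 genes past 2-fold were Dppa3, which protects maternal methylation in the zygote, at 5.71 and 13.7 FPKM, and Hells, a chromatin remodeller needed for DNA methylation, at 118 and 236 FPKM. Trim28 and Dnmt1 were among the loci for which Cuffdiff could not complete its comparison (status FAIL).

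Some entries call for care. For 11 of the 41 imprinted genes in the table, Dlk1, Nnat, Zdbf2, Peg3, Slc38a4, Cdkn1c, Trappc9, Ube3a, Commd1, H19 and Gnas, the status was FAIL, and their FPKM values are given as deposited. The entries of H19, Meg3, Rian, Mirg, Commd1 and Zdbf2 each carry further symbols, such as Mir675 for H19 and the SNORD113 snoRNAs for Rian. Igf2, Meg3, Mkrn3, Peg3, Ppp1r9a, Trappc9 and Usp29 have a second, lower entry. That of Usp29 had the opposite direction to the main entry, at 0.202 FPKM in Hb9 and 0.474 FPKM in A2 MNs.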

How the data were processed

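RNA of FACS-sorted, eGFP-positive cells was sequenced as single-end reads (3 samples in each genotype). The authors assessed reads with FastQC 0.10.1, trimmed them with CutAdapt, mapped them to NCBI m37 with its Ensembl annotation by TopHat 2.04, assembled transcripts with Cufflinks and compared genotypes with Cuffdiff. The deposited table gives 1 FPKM value per genotype and locus, normalised for length and library by the authors. It also holds their fold changes, test statistics, p-values and q-values, which were not used. The table does not hold the reads behind a value, so counting error was not assessed.

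Symbols were matched with Python 3.11.15 and pandas 2.3.3, and the entry with the highest FPKM was kept for each symbol. Log2 ratios (A2 over Hb9) were formed without a pseudocount where 1 of the genotypes reached 1 FPKM and neither was at 0. Each locus was counted once over all genes. The limit of 2-fold is a description, since the table gives no values of single samples and the tests of the authors were set aside. The calculation was tested on simulated data. Every imprinted gene of the set is named, with neighbours and genes of other lists chosen by abundance or by size of the ratio. Members, alleles, clusters and lists came from general knowledge and were chosen with earlier results of these data known. Alternatives changed the filter, pseudocount, scaling, entry choice, fold limit and window. Table positions are NCBI m37, and RefSeq sequences are GRCm38.p6, and positions were never carried from one build to the other.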

Additional observations from a re-analysis of the deposited data

How the results depend on the processing

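The medians over the 40 genes and over paternally and over maternally expressed genes stayed below 0 under each alternative. The median of all genes was 0.03 with FPKM scaled to the upper quartile. The median over neighbours was computed only for other windows and for the exclusions given below, where it stayed below 0. It was not computed for other scalings, filters or pseudocounts. Of the 40 genes, 13 were at least 2-fold lower with FPKM scaled to the same upper quartile, against 20 as deposited, and 11 of these 13 are paternally expressed. Under this scaling 6 were at least 2-fold higher, against 4, and 15.9% of all genes were lower and 11.04% higher. With a limit of 4-fold, 8 were lower and 0 higher, beside 8.88% and 1.80% of all genes, and the 8 are all paternally expressed. Over all alternatives the median log2 ratio ranged from -1.05 to -0.64 for the 40 genes, from -1.64 to -1.06 for paternally expressed and from -0.59 to -0.22 for maternally expressed genes. Without the genes of status FAIL 16 of the remaining 29 were at least 2-fold lower and 3 higher, beside 23.4% and 7.02% of all genes without that status. Of 377 values of single genes under the alternatives, 3 moved by more than 1.5-fold, those of Magel2, Nap1l5 and Rtl1 given below. Sign changed for 5 values, none of them of a gene past 2-fold. Igf2r and Ppp1r9a went above 0 when centred on the median gene (0.02 and 0.28) or scaled to the upper quartile (0.05 and 0.31), and Commd1 went to -0.02 when scaled to the total FPKM. With a pseudocount of 1 FPKM, Magel2 stood at -2.70, Nap1l5 at -2.50 and Rtl1 at -1.87 on the log2 scale. The median of neighbours was -0.30 within 0.5 Mb, -0.32 within 2 Mb and, in alternatives chosen after seeing the data, -0.35 without entries that overlap an imprinted gene and -0.33 outside every cluster and without listed imprinted genes. No paired analysis was possible because the table holds 1 pooled value per genotype, and for the same reason no replicate could be left out. The table does not give the reads behind each value, so the counting error of low values such as those of Rtl1, Dio3, Usp29 and Airn was not assessed.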

Other observations

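The following values were chosen after the data had been seen. Loci without a gene symbol, assembled from reads by the authors, lie among the genes of the Prader-Willi/Angelman and Dlk1-Dio3 clusters. In the whole table, 4526 such loci reached 1 FPKM in either genotype, and 23.8% of them were at least 2-fold lower and 20.5% at least 2-fold higher in A2 MNs. Of 12 such loci between Ube3a and Peg12, 10 were at least 2-fold lower and 1 was at least 2-fold higher in A2 MNs, but all 10 were below 1 FPKM in A2 MNs and were listed only through their Hb9 value, so they had to differ. Over the whole table the same held for 743 of the 1075 lower loci. At the deposited locus that holds Ndn, Magel2 and Mkrn3 (chr7:69483169-69568255, NCBI m37), a locus without a symbol stood at 4.48 FPKM in Hb9 and 0.0787 FPKM in A2 MNs. Loci nearer the start of the chromosome stood at 2.76 and 0.145 FPKM (chr7:69482611-69483113), 2.46 and 0.378 FPKM (chr7:69351416-69354389) and 1.89 and 0.141 FPKM (chr7:69348993-69351358). The exception, a short locus near Ube3a (chr7:66637468-66637552), stood at 549.6 and 1619 FPKM.

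Of 5 loci without a symbol in the Dlk1-Dio3 domain, 4 were at least 2-fold lower in A2 MNs, and all 4 were likewise below 1 FPKM there. Within the other clusters, 2 of 3 were at least 2-fold lower in the Peg3 cluster, 1 of 3 in the Peg10/Sgce cluster and 0 of 1 in the H19/Igf2 cluster. In the Dlk1-Dio3 domain the largest difference was at chr12:111425623-111428497 (NCBI m37), between Mirg and Dio3, with 19.05 FPKM in Hb9 and 0.303 FPKM in A2 MNs. Between Dlk1 and Meg3, loci stood at 4.22 and 0.136 FPKM (chr12:110731326-110746561) and at 4.78 and 0.578 FPKM (chr12:110730837-110731176). The entry of Dio3os and Mir1247, next to Dio3, stood at 1.07 and 0.148 FPKM, a log2 ratio of -2.85, whereas that of Dio3 was -0.49. Of 16 entries that name SNORD113 alone, 6 were lower, 1 was higher and 9 were at 0 in both genotypes. Which allele these loci are transcribed from, and whether they are part of longer transcripts, was not measured.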
